A study of Mus musculus with 2 samples.

Results

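The diabetic wound library held a set of myeloid cells marked by Stfa3, the gene of a stefin (an inhibitor of cysteine proteases), and by Fst, the gene of follistatin (a secreted protein that binds and blocks activins). The set was chosen on measured values. A cell with at least 500 detected genes and under 10% of its UMIs (unique molecular identifiers, each standing for 1 captured RNA molecule) from mitochondrial genes belonged to it when its Stfa3 and Fst UMIs summed to 5 or more and it had under 3 UMIs of Retnlg, a neutrophil gene. Of 1755 diabetic cells that passed the filter, 167 met the rule, a share of 9.52% (95% Clopper-Pearson interval 8.18% to 11.0%). Of 1123 non-diabetic cells, 3 met it, a share of 0.267% (0.0551% to 0.779%). The 167 cells are called the Stfa3 and Fst cells here and are set against the other 1588 diabetic cells. Levels of Stfa3, Fst and Retnlg set the membership and are given as a description only.

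RNA was counted cell by cell in monocytes and macrophages taken from skin wounds of diabetic mice and of non-diabetic mice, 6 days after injury. Cells of 2 mice were pooled into 1 library per group. The labels name neither the diabetic model nor the strains, but speak of mice of each strain, so a difference between the libraries cannot be told apart from a strain difference. The sources used here state neither age nor wound treatment. All the cells compared below come from 1 library, and the ratios between them were not tested: intervals are 95%, cover counting error only and leave out the variation between cells and mice.

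As background, neutrophils and monocytes enter a skin wound early, and monocytes drawn in through the chemokine receptor Ccr2 mature there into macrophages that take up debris, present antigen on MHC class II molecules and release growth factors. Activated myeloid cells of an inflamed wound release interleukin-1, CXC chemokines that attract neutrophils, prostaglandins, and antimicrobial and acute phase proteins such as lipocalin 2 (Lcn2), serum amyloid A (Saa3) and S100a8. Wounds of diabetic animals are known for inflammation that lasts.

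Stfa3 (ENSMUSG00000054905) lies on the minus strand of mm10 chromosome 16, at 36450537 to 36455392, among other stefin genes. Lcn2 (ENSMUSG00000026822) and Il1a (ENSMUSG00000027399) lie on the minus strand of chromosome 2, at 32384633 to 32388252 and 129299610 to 129309972. Fst (ENSMUSG00000021765) lies on the minus strand of chromosome 13, at 114452290 to 114458951. The 250 bases before the RefSeq start of Stfa3, which names the set, and of Lcn2 and Il1a, 2 of the genes highest in it, are printed from RefSeq on GRCm38.p6, at chr16:36455393-36455642, chr2:32387740-32387989 and chr2:129309973-129310222, all minus strand. The RefSeq start of Lcn2 lies inside the longer GENCODE gene given above, so its window overlaps that gene, while the Stfa3 and Il1a windows adjoin theirs. Capitals mark a match to the C/EBP letters TTGCNNAA in Lcn2 and to the AP-1 letters TGANTCA in Il1a, searched on both strands.
Stfa3: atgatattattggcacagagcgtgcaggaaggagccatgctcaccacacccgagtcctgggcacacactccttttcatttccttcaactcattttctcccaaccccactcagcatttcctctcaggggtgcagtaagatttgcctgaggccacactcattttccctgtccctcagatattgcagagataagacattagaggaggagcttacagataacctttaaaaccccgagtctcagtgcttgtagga
Lcn2: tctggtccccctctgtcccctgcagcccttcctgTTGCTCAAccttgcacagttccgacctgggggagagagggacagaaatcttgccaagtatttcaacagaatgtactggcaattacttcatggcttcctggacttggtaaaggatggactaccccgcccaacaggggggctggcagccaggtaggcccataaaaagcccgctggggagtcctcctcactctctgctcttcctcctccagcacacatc
Il1a: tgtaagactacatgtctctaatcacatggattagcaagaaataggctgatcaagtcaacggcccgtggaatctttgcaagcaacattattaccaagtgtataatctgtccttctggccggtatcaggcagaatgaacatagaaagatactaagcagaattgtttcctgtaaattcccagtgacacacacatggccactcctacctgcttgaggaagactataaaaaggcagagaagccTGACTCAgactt
The Stfa3 window held neither motif, nor the NF-kappaB motif that was also searched. Of the 15 genes with the highest ratios, 11 had a RefSeq promoter, of which 2 held the C/EBP letters, 2 the AP-1 letters and 0 the NF-kappaB motif. Over 32851 promoters of the same length, 9.56% held the C/EBP letters, 6.75% the AP-1 letters and 0.356% the NF-kappaB motif. Of the 10 genes with the lowest ratios, 8 had a promoter, of which 0 held the C/EBP letters, 1 the AP-1 letters and 0 the NF-kappaB motif.

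The diabetic library held 2214 barcodes and 31730014 UMIs, and the non-diabetic library 2026 barcodes and 17559986 UMIs. The Stfa3 and Fst cells had between 1280 and 46991 UMIs (median 19477) and a median of 3621 genes, against medians of 16067.5 UMIs and 3501 genes in the other diabetic cells. Mitochondrial genes gave a median of 3.08% of UMIs in the Stfa3 and Fst cells and 3.88% in the others. The libraries shared 6 barcodes, none of them a Stfa3 and Fst cell. A further 4 of 459 diabetic barcodes and 1 of 903 non-diabetic barcodes that failed the filter met the UMI part of the rule. The Retnlg limit left out 2 diabetic cells and no non-diabetic cell that reached 5 UMIs of Stfa3 and Fst.

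Stfa3 and Fst marked overlapping but unequal portions of the set. Stfa3 UMIs per cell had a median of 31 and a highest value of 419, and Fst UMIs a median of 0 and a highest value of 92. Summed over cells, Stfa3 was at 2915 against 11.0 CPM in the other diabetic cells and Fst at 539 against 2.77 CPM. No Fst UMI was found in 90 of the 167 cells, no Stfa3 UMI in 25, and UMIs of both in 52. Across the 167 cells, which all come from 1 library, the Spearman correlation of the levels per 10000 UMIs was -0.41, a description of a set that the sum of both genes defined. Any Stfa3 UMI was found in 233 of the 1755 diabetic cells and in 1 of the 1123 non-diabetic cells, and any Fst UMI in 121 diabetic and 17 non-diabetic cells. Among 32 other diabetic cells with at least 5 UMIs of the dendritic cell gene Cd209a (median 18886.5 UMIs), 0 had a Stfa3 or Fst UMI, which allows a share of up to 9.38%.

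**Figure D1:**
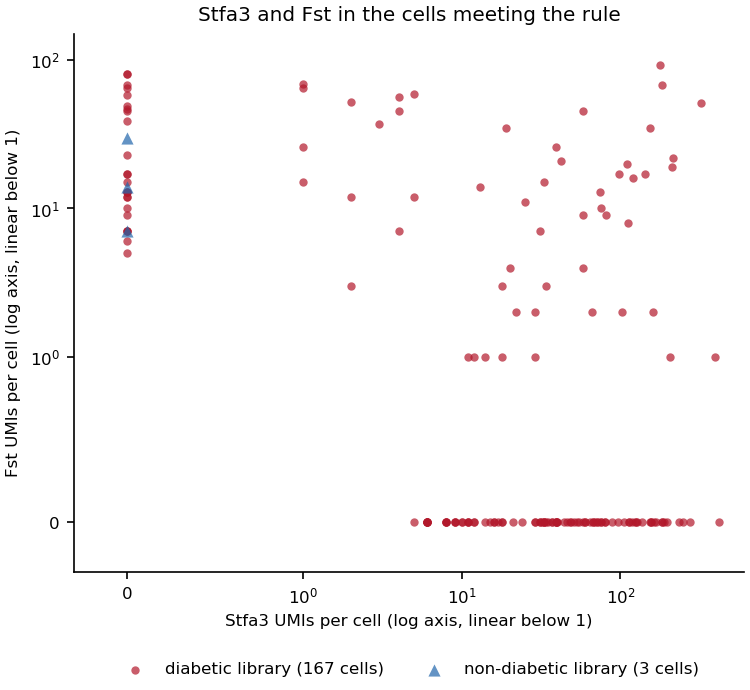
Fst UMIs (vertical axis) against Stfa3 UMIs (horizontal axis) in each cell that met the rule, on axes that are logarithmic above 1. Circles are the 167 diabetic cells, 90 of which lie at 0 Fst and 25 at 0 Stfa3, and triangles are the 3 non-diabetic cells, all at 0 Stfa3.

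The 3 non-diabetic cells met the rule through Fst alone. They had 30, 14 and 7 Fst UMIs and 0 Stfa3 UMIs. Ptges, the gene of an enzyme that makes prostaglandin E2, and Saa3 had 0 UMIs in all 3. Lcn2 had 2 UMIs in 1 of them, and S100a8 had 2, 0 and 12 UMIs. Inhba, which encodes the activin subunit beta A, had 18, 0 and 51 UMIs. Of the other given markers, S100a8 was the only one above 2 UMIs in any of these 3 cells.

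The Stfa3 and Fst cells carried high levels of most acute phase and antioxidant genes and of single cytokine and chemokine genes such as Il1a and Cxcl3. Most MHC class II, interferon-induced and complement genes were at low summed levels. High Cxcl3, Saa3 and Ptges and low H2-Aa, an MHC class II gene, were shared with similar cells that missed the rule, described below. Those cells had less S100a8, Lcn2 and Il1a than the set, but more than the remaining diabetic cells. Levels are CPM, the share of a gene in all UMIs summed over the cells on the usual counts-per-million scale, counted at the 3′ ends of transcripts and so not scaled by length. Of 11659 genes with at least 20 UMIs over both sums, 568 were at least 2-fold higher in the Stfa3 and Fst cells (4.87%) and 2218 at least 2-fold lower (19.0%). The median log2 ratio over these genes was -0.30. Under TMM scaling and median-of-ratios scaling all log2 ratios moved up by 0.28 and 0.30, so that higher genes made up 35.9% and 37.3% of those past 2-fold, against 20.4% on the CPM scale. Among 1493 nameable genes at 100 CPM or more in either sum, 121 were at least 2-fold higher (8.10%) and 141 at least 2-fold lower (9.44%). The set was chosen in the same cells, so these counts describe it and support nothing further.

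**Figure D2:**
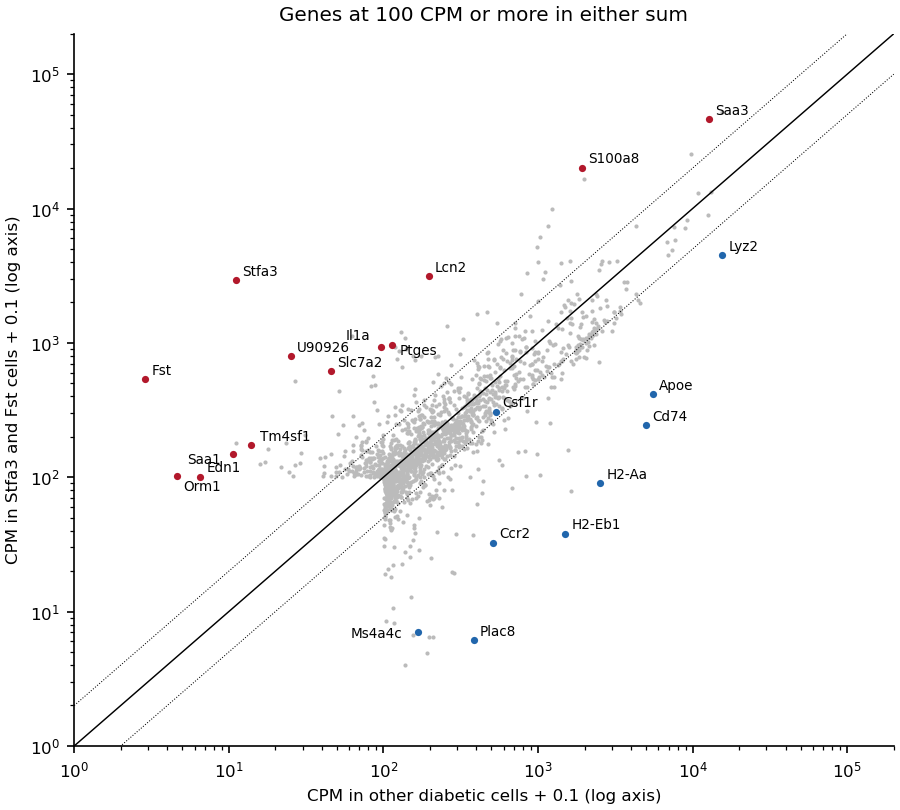
CPM in the Stfa3 and Fst cells (vertical axis) against CPM in the other diabetic cells (horizontal axis), both logarithmic with 0.1 added, for genes at 100 CPM or more in either sum. The solid line is equality and the dotted lines 2-fold. Red genes such as Lcn2 and S100a8 lie above, and blue genes such as Apoe, H2-Aa and Plac8 below.

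The given markers other than Stfa3 and Fst were all higher. Lcn2, which encodes a protein that withholds iron from bacteria, ran from 0 through a median of 11.7 to 214 UMIs per 10000 UMIs of the cell in the Stfa3 and Fst cells, with a median of 0 and a highest value of 219 in the other diabetic cells. The ranges overlapped, but 130 of the 167 cells had an Lcn2 UMI, against 427 of the 1588 others. Its summed level was 3161 against 197 CPM, 16.1-fold higher (15.5 to 16.6).

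S100a8, a calcium-binding alarmin subunit of neutrophils and activated monocytes, was found in every Stfa3 and Fst cell, from 1.05 through a median of 128 to 1626 UMIs per 10000, against a median of 1.36 and a highest value of 1141 in the others. All but 1 of the 167 cells lay above the median of the others. The summed level was 20173 against 1928 CPM, 10.5-fold higher (10.3 to 10.6).

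Ptges ran from 0 through 8.61 to 38.3 UMIs per 10000 in the Stfa3 and Fst cells, against a median of 0 and a highest value of 31.7 in the others. It was found in 156 of 167 cells against 307 of 1588, at 966 against 113 CPM, 8.56-fold higher (8.15 to 9.0). Saa3, an acute phase protein made by macrophages, differed less: its median was 276 UMIs per 10000 in the Stfa3 and Fst cells and 3.03 in the others, whose highest cell reached 3251, above the 1806 of the set. Summed Saa3 was 46058 against 12691 CPM, 3.63-fold higher (3.61 to 3.65).

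Some of these RNAs were widespread. After each cell was thinned to 5000 UMIs, which kept 156 Stfa3 and Fst cells and 1505 others, a Saa3 UMI was found in 94.9% of the set and 67.4% of the others, an S100a8 UMI in 98.7% and 52.7%, an Lcn2 UMI in 72.4% and 16.3%, and a Ptges UMI in 89.1% and 14.0%. In the 32 Cd209a cells, unthinned, 21 had a Saa3 UMI, 8 an S100a8 UMI, 4 an Lcn2 UMI and 1 a Ptges UMI. How much of the low shares comes from free RNA was not tested.

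**Figure D3:**
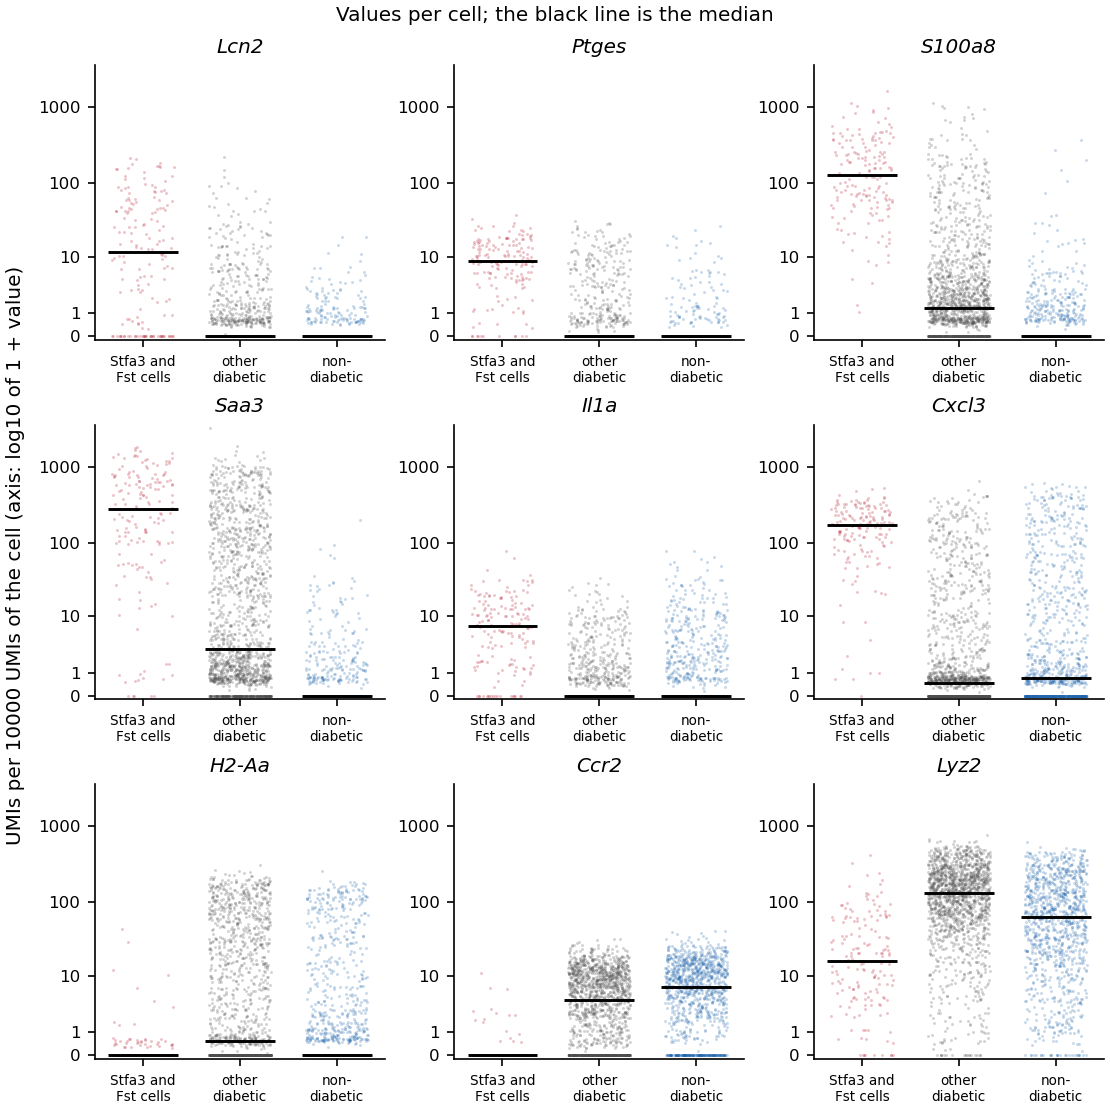
UMIs per 10000 UMIs of each cell (vertical axes, log10 of 1 + value) for 9 genes in the Stfa3 and Fst cells, the other diabetic cells and the non-diabetic cells not meeting the rule; each point is a cell and the black line the median. The medians of Lcn2, Ptges and Il1a are above 0 in the Stfa3 and Fst cells and at 0 in both other groups, while the medians of H2-Aa and Ccr2 are at 0 in the set.

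The genes with the highest ratios after Stfa3 and Fst at 100 CPM or more were U90926, at 800 against 25.04 CPM (31.9-fold higher, 29.3 to 34.8), and Orm1, the acute phase protein orosomucoid, at 102 against 4.54 CPM (log2 ratio 4.48). Both came from a minority of cells: 40 of the 167 had a U90926 UMI and 52 an Orm1 UMI. Edn1, the vasoconstrictor endothelin, was found in 42 cells, at 101 against 6.42 CPM (3.97). Saa1, a further serum amyloid gene, was found in 21 cells, 1 of which held 24.6% of its UMIs (3.82). Tm4sf1, a membrane protein gene, was found in 56 cells (3.64).

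Others of the highest 15 were present in most of the set. Slc7a2, a transporter of arginine and other cationic amino acids, was found in 130 of 167 cells, at 616 against 45.9 CPM (log2 ratio 3.74). AA467197 was found in 149 cells, at 1202 against 130 CPM (3.21). Il1f9, which RefSeq lists as a synonym of the interleukin-1 family gene Il36g, was found in 95 cells, at 162 against 17.9 CPM (3.17). The ratios of Slc7a2, Il1a and Il1f9 are uncertain in part, since each has a stretch of transcript at least 95% identical to another annotated transcript, and the sources used here do not say how such reads were counted.

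Some stefin genes beside Stfa3 were higher and others were not. On the same stretch of chromosome 16, Gm5483 was at 519 against 26.9 CPM (log2 ratio 4.27) and 2010005H15Rik, which RefSeq calls Csta2, at 1134 against 62.4 CPM (4.18). These 2 were singled out after their values were seen, and their transcripts are 95.3% identical over 385 bases, so reads could be split between them. Stfa2 was at 28.9 against 1.401 CPM, with 64.6% of its UMIs in 1 cell, and Stfa1 at 13.9 against 3.13 CPM. Of the 7 measured genes of a stefin and cystatin list without Stfa3, 2 were at least 1.5-fold higher, Stfa1 and Stfa2, and 2 at least 1.5-fold lower. The median log2 ratio was 0.31, but -0.23 as the mean of per-cell CPM and 1.28 after thinning to 5000 UMIs. For this and the other list medians after thinning, the rule was applied again to the thinned cells. That left 115 cells in the set and 1546 others, so these medians differ in cells as well as depth. Stfa1 and Stfa2 are uncertain too, since their transcripts are 96.9% identical to BC100530 over 618 bases and 96.5% to Stfa2l1 over 367 bases. Stfa2l1 was at 14.5 against 11.8 CPM and BC100530 at 4.52 against 3.58 CPM. Of the lower genes, Cst3, the secreted cystatin C gene, was at 602 against 1435 CPM. No near-identical copy of Stfa3 was found among the annotated transcripts.

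Gene lists were described by how many measured genes were at least 1.5-fold higher or lower, beside 9.88% and 34.2% of all measured genes. Of 12 acute phase and antimicrobial genes, 8 were higher and 4 lower, with a median log2 ratio of 1.94. The higher ones included the given markers Saa3, Lcn2 and S100a8, so this count is not independent of how the markers were chosen. Given markers also stand in the prostaglandin list (Ptges) and the iron list (Lcn2). Hp, the gene of haptoglobin, which binds free haemoglobin, was at 4001 against 993 CPM, and Slpi, an antiprotease, at 7449 against 1165 CPM. The 4 lower ones were Lyz2, Lyz1, Chil1 and Cp. Lyz2, the myeloid lysozyme, was at 4518 against 15514 CPM, 3.43-fold lower (3.38 to 3.49), and 8 of the 167 cells lay above the median of the others.

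Of 11 CXC chemokine genes, 6 were higher and 5 lower. Their median of 0.66 turned to -0.24 after thinning to 5000 UMIs, with the rule applied again. The 3 neutrophil attractants Cxcl1, Cxcl2 and Cxcl3 were at 5196 against 991, 25540 against 9782 and 16662 against 1990 CPM. Cxcl3 was found in 166 of 167 cells. Cxcl5, a further attractant, was at 803 against 176 CPM but in 36 cells. Lower members were Cxcl9, Cxcl10, Cxcl13, Cxcl14 and Cxcl16. Of 11 CC chemokine genes, 3 were higher and 5 lower (median -0.38, but -1.63 in cells chosen by Stfa3 alone). Ccl3 was at 6110 against 1027 CPM and Ccl4 at 3335 against 845 CPM, both attractants of myeloid cells, while all 140 UMIs of the third, Ccl5, came from 1 cell.

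Of 13 interleukin-1 and inflammasome genes, 4 were higher, Il1a, Il1b, Il1r1 and Nlrp3, and 5 lower, with a median of -0.26 that was 0.02 under TMM scaling. Il1f9, described above, stands outside this count, since the list held it under its other symbol. Il1a, an interleukin-1 that acts as an alarm signal of damaged cells, ran from 0 through a median of 7.30 to 78.5 UMIs per 10000 in the Stfa3 and Fst cells, against a median of 0 and a highest value of 33.8 in the others. It was at 938 against 96.5 CPM, 9.72-fold higher (9.23 to 10.2). Il1b, the secreted form processed by the inflammasome, was at 7411 against 4327 CPM, 1.71-fold higher (1.69 to 1.74). Of 13 other cytokine and mediator genes, 8 were higher and 4 lower (median 0.91). Csf3, the granulocyte colony-stimulating factor, was at 899 against 141 CPM, Nos2, the inducible nitric oxide synthase, at 876 against 125 CPM, and Tnf at 587 against 225 CPM.

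Of 16 prostaglandin and leukotriene genes, 4 were higher, Ptges, Ptgs2, Pla2g4a and Pla2g7, and 3 lower, Hpgds, Alox5 and Hpgd, with a median of -0.13 that was 0.16 under TMM scaling. Ptgs2, the inducible cyclooxygenase that supplies the substrate of Ptges, was at 3361 against 1102 CPM. Of 17 activin and TGF-beta genes, Fst left out, 2 were higher and 8 lower (median -0.46). Inhba was at 174 against 63.3 CPM and in 82 of the 167 cells, and Tgfbi, a matrix protein gene induced by TGF-beta, at 726 against 2476 CPM.

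Of 15 metallothionein and antioxidant genes, 12 were higher and 0 lower (median 1.17). Mt2, a metal-binding protein gene, was at 1335 against 256 CPM, Slc7a11, the cystine transporter, at 1690 against 467 CPM, and Sod2, the mitochondrial superoxide dismutase, at 2320 against 773 CPM. Of 21 glycolysis and hypoxia genes, 10 were higher and 0 lower (median 0.58), among them Slc2a1, the glucose transporter, at 323 against 144 CPM, and Egln3, an oxygen-sensing prolyl hydroxylase, at 127 against 28.7 CPM. Fth1, the iron-storing ferritin heavy chain, was the highest of 14 iron genes, at 52199 against 15447 CPM, and 5 of that list were higher and 4 lower (median 0.32). Of 12 arginine genes, 5 were higher and 3 lower (median 0.55), with Arg1 at 4041 and 1616 CPM.

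Of 15 matrix protease genes and inhibitors, 8 were higher and 5 lower (median 0.69). Mmp8, a collagenase of neutrophils, was at 753 against 123 CPM and in 107 of 167 cells, and Serpinb2, a protease inhibitor, at 1084 against 138 CPM. Of 15 growth factor genes, 4 were higher and 6 lower (median -0.10, and above 0 under both other scalings). The epidermal growth factor receptor ligands Ereg and Areg were at 436 against 51.4 and 794 against 155 CPM, and found in 81 and 87 cells.

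The lower side held antigen presentation, complement and interferon-induced genes. Of 12 MHC class II presentation genes, 11 were lower and 0 higher (median -4.30). H2-Aa, an MHC class II chain, was at 90.1 against 2527 CPM, 28.0-fold lower (25.03 to 31.5), and 1 of the 167 cells held 50.2% of its UMIs. The invariant chain gene Cd74 was at 244 against 5020 CPM, with 37.7% of its UMIs in 1 cell. H2-Eb1, H2-Ab1 and H2-DMb1 had log2 ratios of -5.30, -4.36 and -5.26; H2-DMb1 has a near-identical copy. Of 18 interferon-induced genes, 17 were lower and 0 higher (median -1.81, and -2.40 after thinning), Isg15 at 16.3 against 50.6 CPM among them. The interferon list's sum per 10000 UMIs had a median of 1.07 in the set and 1.99 in the others. The highest cells were at 11.3 and 246, and the part of a few high cells in these ratios was not tested. Of 14 complement genes, 9 were lower and 1 higher (median -1.63). C1qa, a chain of the classical pathway's recognition protein, was at 104 against 1033 CPM, with a UMI in 25 of 167 cells against 787 of 1588. Of its 344 UMIs in the set, 263 came from the 16 cells outside the main cluster described below, at 647 CPM, and the 151 cells inside it were at 27.8 CPM.

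Of 12 alternative activation genes, 11 were lower and 0 higher (median -2.02), with the mannose receptor Mrc1 at 37.1 against 377 CPM. Of 9 osteoclast and giant cell genes, 9 were lower (median -2.57, but -1.78 as the mean of per-cell CPM). Of 17 lipid genes, 8 were lower and 2 higher, near the shares of all genes (median -0.43, and -0.14 under TMM scaling). Lpl, the lipoprotein lipase, was at 6.33 against 209 CPM, 32.2-fold lower (21.6 to 53.4), and Apoe, the lipid carrier of macrophages, at 416 against 5512 CPM, 13.2-fold lower (12.6 to 14.0), with 5 of the 167 cells above the median of the others. Of 12 genes of G2 and M phase, 10 were lower and 0 higher. Their median of -2.40 was -0.78 after thinning to 5000 UMIs and -1.72 as the mean of per-cell CPM. Of the lower genes, Top2a was at 2.41 against 13.5 CPM. Mki67 was at 29.8 against 29.4 CPM with 35.4% of its UMIs in 1 cell. The sum of this list per 10000 UMIs had a median of 1.26 in the set and 1.51 in the others, with highest cells of 13.1 and 84.3.

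Others of the 10 lowest ratios were Plac8, a gene of monocytes, at 6.03 against 384 CPM (log2 ratio -5.96), the membrane protein genes Tmem176a (-5.07), Tmem176b (-4.93) and Ms4a4c (-4.56), and Ly86 (-4.52), whose product pairs with a Toll-like receptor relative. A Ly86 UMI was found in 14 of the 167 cells and in 923 of the 1588 others.

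**Figure D4:**
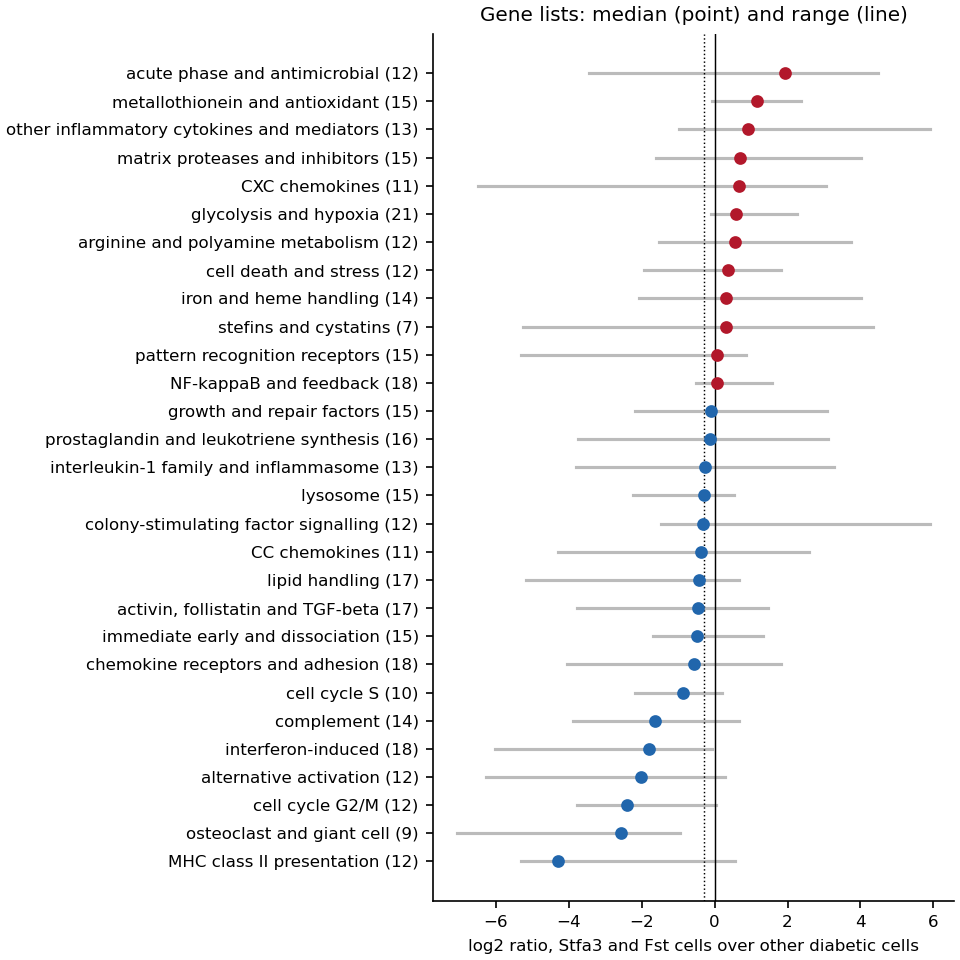
Median (point) and range (line) of the log2 ratio, Stfa3 and Fst cells over other diabetic cells, for the measured genes of each list (number in brackets); the dotted line is the median of all measured genes, -0.30. Acute phase genes, given markers among them, have the highest median, 1.94, and MHC class II genes the lowest, -4.30.

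The remaining lists had medians within 2-fold. Higher and lower genes numbered 4 and 0 of 18 for NF-kappaB and its feedback (median 0.06), 3 and 4 of 15 for pattern recognition receptors (0.08), 4 and 3 of 12 for cell death and stress (0.37), and 2 and 6 of 15 for immediate early and dissociation genes (-0.50). They numbered 3 and 9 of 18 for chemokine receptors and adhesion (-0.57), 3 and 3 of 12 for colony-stimulating factor signalling (-0.32), 0 and 5 of 15 for the lysosome (-0.29, and 0.02 under median-of-ratios scaling) and 0 and 6 of 10 for S phase (-0.87). The S phase sum per 10000 UMIs had a median of 0.80 in the set and 0.78 in the others, with highest cells of 7.02 and 23.8. Ccr2 was at 32.5 against 513 CPM, with a UMI in 17 of 167 cells against 1163 of 1588. Cebpb, a transcription factor of myeloid inflammation, was at 2073 against 2250 CPM, found in all 167 cells, and its log2 ratio of -0.12 was above 0 under both other scalings.

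Against cell type markers, the set carried myeloid genes without a full profile of monocytes, macrophages or neutrophils. Itgam, the integrin of myeloid cells, was found in all 167 cells, Csf1r, the receptor that monocytes and macrophages depend on, in 153, and Adgre1, the macrophage F4/80 antigen, in 113. All 12 macrophage markers were at least 1.5-fold lower (median -1.96), and their summed level per 10000 UMIs ran from 0 to 147 with a median of 12.3, against a median of 81.3 in the others. Csf1r was at 308 against 537 CPM and Adgre1 at 161 against 252 CPM, and both ratios were within 1.5-fold under TMM and median-of-ratios scaling. Of 10 classical monocyte markers, 5 were lower, Ccr2 and Plac8 among them, and 2 higher, Hp and Gsr.

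Of 15 neutrophil markers, 9 were measured: S100a8, S100a9 and Mmp8 were higher, and Retnlg, Cxcr2, G0s2 and Hdc lower. The list's sum ran from 1.57 through 137 to 2218 UMIs per 10000 in the Stfa3 and Fst cells, against a median of 3.19 and a highest value of 2902 in the others, and S100a8 gave most of it, 20173 of 22244 CPM. Ly6g and Ngp were at 0 in the set, Camp, Elane and Ltf at 1 UMI each, and Csf3r, the receptor of granulocyte colony-stimulating factor, at 56.1 against 80.5 CPM. S100a9, the partner of S100a8, was found in 63 cells, 1 of which held 28.8% of its UMIs. The part of neutrophil RNA in the S100a8 level was not tested.

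Most markers of other cell types were at or near 0, with Cd24a and Dcn as exceptions. All 8 T and NK cell markers and all 6 mast cell and basophil markers were at 0, as were 8 of 10 keratinocyte markers and 6 of 10 dendritic cell markers. The sum of 6 endothelial markers was 21.4 against 58.2 CPM, that of 5 B cell markers 2.11 against 52.5 CPM and that of 4 red cell markers 0.904 against 1.14 CPM. The sum of 8 fibroblast markers was 74.7 against 52.8 CPM, of which Dcn gave 66.9 CPM, with 64.9% of its UMIs in 1 cell. Of the 4 Langerhans cell markers, Cd207 and Epcam were at 0. Cd24a was at 285 against 46.5 CPM, with a UMI in 134 of the 167 cells against 297 of 1588. In the classes described below, Cd24a was at 342 CPM in the Retnlg class and at 13.3, 2.72 and 7.31 CPM in the Cd163, Ccl24 and Cx3cr1 classes. A search for doublets marked none of the 167 cells, but it marked 0.285% of all diabetic cells and so cannot be relied on.

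Levels of several genes differed along the Stfa3 and Fst count, though not at every step. Diabetic cells with under 3 Retnlg UMIs fell into bins of 0, 1 to 4, 5 to 9, 10 to 29 and 30 or more UMIs of Stfa3 and Fst, with 1449, 124, 21, 41 and 105 cells. Lcn2 was at 149, 443, 2940, 2474 and 3423 CPM along these bins, S100a8 at 1358, 5434, 17379, 12054 and 23303 CPM, and Il1a at 83.3, 217, 607, 628 and 1092 CPM. Lyz2 was at 15853, 12914, 7665, 5313 and 3759 CPM, and Apoe at 5716, 3802, 747, 821 and 231 CPM. Cells with 1 to 4 UMIs, outside the rule, lay between the cells with none and the set for all 5 genes. At the threshold itself, the 10 cells with 5 or 6 UMIs and the 15 cells with 3 or 4 UMIs had 2820 and 1183 CPM of Lcn2, 529 and 423 CPM of Ptges, and 9712 and 8137 CPM of Lyz2. Lyz2 was thus not lower just inside the rule than just outside it.

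**Figure D5:**
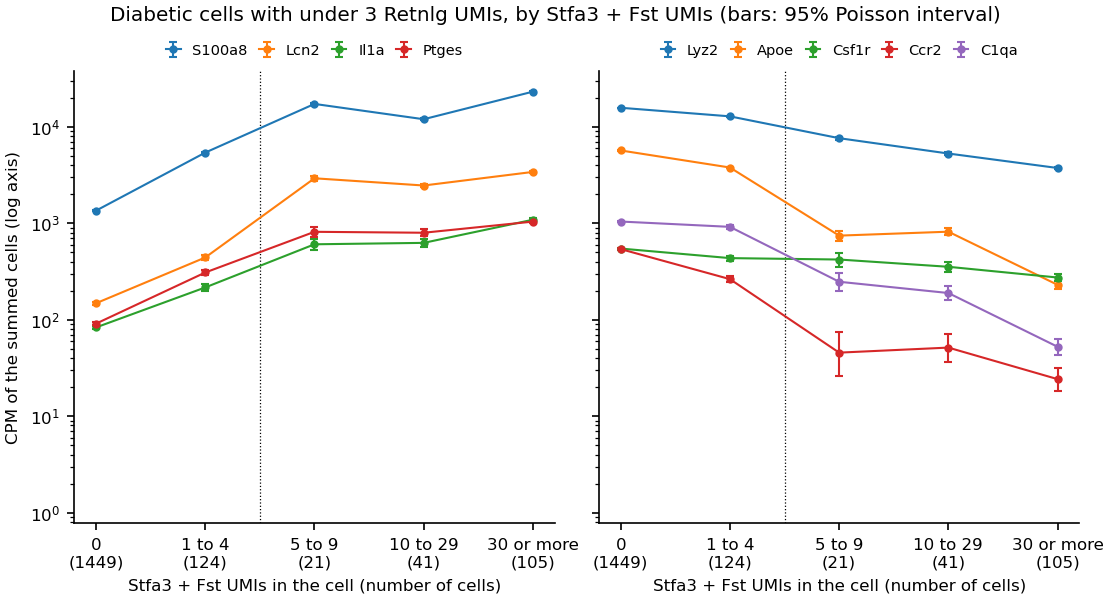
CPM summed over the diabetic cells of each bin of Stfa3 + Fst UMIs (horizontal axis, number of cells in brackets), on a logarithmic vertical axis, with 95% Poisson intervals; the dotted line marks the rule. S100a8, Lcn2, Il1a and Ptges are higher to the right of it, and Lyz2, Apoe, Csf1r, Ccr2 and C1qa lower.

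In a Leiden clustering of all cells of both libraries, 152 of the 167 cells (91.0%, 85.6% to 94.9%) fell in 1 cluster of 300 cells, all of them diabetic. Without Stfa3, Fst and Retnlg among the genes, 151 fell in 1 cluster of 298 cells, again all diabetic. In that second clustering, the 151 cells of the set in the cluster were at 1073 CPM of Ptges, 48631 of Saa3, 22513 of S100a8 and 3584 of Lcn2. The other 147 cells of the cluster, which missed the rule, were at 866, 43357, 12735 and 1307 CPM for the same genes, and the 1441 diabetic cells outside it that missed the rule at 23.1, 9036, 640 and 64.4 CPM. The 16 cells of the set elsewhere were at 204, 27624, 3408 and 130 CPM, with Lyz2 at 16960 CPM, near the 16853 CPM of the cells outside the cluster. H2-Aa was low across the cluster, at 90.7 CPM in the 151 cells and 103 CPM in the 147, against 2816 CPM in the 1441. In the same order, Nos2 was at 961, 831 and 41.1 CPM and Cxcl3 at 18735, 14260 and 528 CPM. Slpi was at 8160, 6843 and 488 CPM and Mmp8 at 855, 759 and 47.1 CPM. The 151 and the 147 cells differed more in U90926 (911 and 228 CPM), Il1a (1051 and 543 CPM) and Apoe (256 and 830 CPM). The comparison with all other diabetic cells thus includes these 147 cells of the same cluster. Without them, an alternative added after the data were seen, the log2 ratios were 5.62 for Lcn2, 4.98 for S100a8, 5.39 for Ptges and 9.82 for U90926, all over 1.5 times the fold given above.

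Within the set, 40 cells had more Fst than Stfa3 UMIs and 127 at least as many Stfa3. Of 1322 genes at 100 CPM or more in either, 13 were at least 2-fold higher in the cells with more Fst (0.983%) and 25 at least 2-fold lower (1.89%), Fst and Stfa3 included. Lcn2 was at 4244 against 2820 CPM, Saa3 at 60337 against 41557, Ptges at 1158 against 906 and S100a8 at 14320 against 22018. U90926 was at 1909 against 450 CPM, AW112010 at 174 against 42.0 CPM and Cxcl5 at 1823 against 482 CPM. Fxyd2, a regulator of the sodium pump, was at 13.8 against 105 CPM, the monocyte attractant Ccl2 at 101 against 453, Ccl6 at 76.7 against 316 and Areg at 246 against 966. Divided instead by any Fst UMI against none, the 77 and 90 cells had log2 ratios of 0.48 for Cxcl5, -0.86 for Ccl2 and -0.77 for Areg, within 2-fold, and of 1.04 for Lcn2, past 2-fold, against 0.59 in the first division. In this division 10 genes were at least 2-fold lower.

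The set was also put beside 4 classes of the other diabetic cells, defined by at least 5 UMIs of Cd163 (174 cells), Ccl24 (23 cells) or Cx3cr1 (71 cells), or at least 3 of Retnlg (13 cells, median 5320 UMIs). Cells of the set were kept out of the classes, though 10 of them also reached 5 UMIs of Cd163 and 1 reached 5 of Cx3cr1. Saa3 was shared with the Cd163 class, at 46058 CPM in the Stfa3 and Fst cells and 41803, 3671, 463 and 9669 CPM in the Cd163, Ccl24, Cx3cr1 and Retnlg classes. Lcn2 was shared with the Retnlg class, at 3161 CPM in the set and 30.2, 95.1, 18.7 and 3327 CPM in the classes, as was S100a8, at 20173 and 609, 1117, 79.5 and 27197 CPM. Ptges and Il1a were higher in the set than in all 4 classes. Ptges was at 966 against 66.8, 32.6, 15.4 and 313 CPM, and Il1a at 938 against 40.8, 10.9, 26.8 and 224 CPM. The neutrophil receptor Cxcr2 was at 0.603 CPM in the set and 301 CPM in the Retnlg class, and S100a9 at 1071 and 31598 CPM. Some other genes high in the set were higher still in the Retnlg class. Il1f9 was at 162 and 690 CPM, Gm5483 at 519 and 1304, and Stfa2 at 28.9 and 147. Mmp8 was at 753 and 1392 CPM, Cxcl2 at 25540 and 39715, and Ccl4 at 3335 and 5280. Cxcl3 (16662 and 8572 CPM), Nos2 (876 and 159) and Slpi (7449 and 4236) went the other way. Stfa3 itself was at 2915 and 1050 CPM. In the Retnlg class its 178 UMIs came from 30.8% of the 13 cells, and the Ptges UMIs from 23.1% of them. The 2 diabetic cells that only the Retnlg limit left out of the set were not barred from this class. Summing gives deep cells more weight, and the part of such cells in the likeness of this class to the set was not tested. Across 1493 genes, which are not independent and share 1 library, Pearson correlations of the log levels with the set were 0.81 for the Retnlg class, 0.68 for Cd163, 0.52 for Ccl24 and 0.40 for Cx3cr1.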

How the data were processed

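Wounds were digested with enzymes and the cells of 2 mice pooled per group for droplet libraries read at the 3′ end, per the labels' protocols. Each deposited matrix gives UMI counts, whole numbers without scaling, that Cell Ranger 3.0.2 wrote, per the file headers. The submitters' processing notes name mm10, and no source used here names the annotation release. Both matrices list 31053 genes, of which 71 entries share a symbol and were not named.

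The cells, markers and gene lists were chosen with earlier results of these data known. Counts were summed over the cells of each group and divided by the sum to give CPM, and the log2 ratio used sums with 0.5 added. Ratios were described for genes that reached 20 UMIs in the 2 sums together. Shares have Clopper-Pearson, sums exact Poisson and ratios conditional exact binomial intervals at 95%, and a count of 0 was read as allowing up to 3 counts. With 1 library per group, no test was made. The ratio code was tested on simulated data.

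Named genes were the 15 highest and 10 lowest log2 ratios at 100 CPM or more in either sum, leaving out genes of mitochondria, ribosomal proteins, haemoglobins, Xist, Y-linked genes and numbered gene models, up to 4 genes of each list at 20 CPM or more, the 5 highest and lowest between the subsets, and the given markers with Retnlg, Csf1r, Adgre1, Inhba, Il1b and Cebpb. Other genes given with a value were chosen after their values were seen, and some genes that the rule names are not reported here. Doublets were sought with Scrublet and kept. Clustering used the 2000 most variable genes, 30 principal components, 15 neighbours and resolution 1 in scanpy 1.11.5 with leidenalg 0.10.2. The alternative scalings came from edgeR 4.0.16 and DESeq2 1.42.0 in R 4.3.3. Near-identical transcripts were sought in GENCODE M21 with BLAST 2.17.0, at 95% identity over 200 bases, and gene positions are from the same annotation. Calculations used Python 3.11.15.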

Additional observations from a re-analysis of the deposited data

How the results depend on the processing

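Of 116 genes named with a change of the size required, 3 turned sign under 1 of 20 alternative settings and 28 of 2316 recomputed ratios fell short of the threshold, in 13 genes. Ctsk turned to 0.65 against other cells of the same depth range, and Retnlg to 0.95 without cells carrying markers of other types. The latter setting also dropped other cells with at least 3 Retnlg UMIs, and Retnlg is a gene of the rule, so its turn says nothing about the set. Ccl5 turned to -5.94 in cells chosen by Stfa3 alone, an alternative added after the data were seen. Of 12 list medians past 1.5-fold, that of the CXC chemokines turned to -0.24 after thinning to 5000 UMIs. In that setting the rule was applied again to the thinned cells, which left 115 cells in the set and 1546 others. Over all settings, 9 of 240 recomputed medians of the 12 lists fell short of 1.5-fold, in 4 lists, the CXC chemokines among them. The number of non-diabetic cells meeting the rule was 6 at a minimum of 3 UMIs, 1 after thinning and 0 by Stfa3 alone. Genes at least 2-fold higher numbered 897 under TMM scaling, 936 under median-of-ratios scaling, 2925 with no minimum of UMIs and 318 at a minimum of 100 UMIs, where 1370 were lower. Lists with a median at least 1.5-fold higher numbered 10 under either scaling, against 5 on the CPM scale. Between the subsets, genes at least 2-fold lower numbered 10 when the cells were divided by any Fst UMI. Against a reference without the 147 similar cells of the main cluster, also added after the data were seen, 651 genes were higher and 2418 lower. The causes were not tested. No paired analysis was possible because each group has 1 library. In the Stfa3 and Fst cells, depth limits what can be said of a gene at 0 UMIs in a single cell.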
